A study of Mus musculus with 3 samples.

Results

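B cell precursors are cells of the B lineage that are still assembling their antigen receptor genes. Here they were selected on 8 genes in single-cell libraries of mouse brainstem, as barcodes with at least 5 UMIs of Cd79a and Cd79b per 10000, at least 2 UMIs of Rag1, Dntt, Vpreb1, Vpreb3 and Igll1 together and 0 UMIs of Ighd. A UMI marks 1 captured transcript. The rule kept 139 of 23699 cells: 0 in the library tumour 1, 6 in tumour 2 and 133 in normal. All cells kept by the rule are called precursors below. Of these, 58 in normal and 6 in tumour 2 passed on Vpreb3 alone, so not every cell is shown to be still assembling receptor genes. These values chose the cells, so the levels of the 8 genes are given as a description.

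The tumour libraries came from B6(Cg)-Tyrc-2J/J mice, 6 weeks old at injection, that received 100000 cells of the murine diffuse midline glioma line DIPG4423 in the brain and stayed untreated for 3 weeks. Their titles call them "Control", and the labels name 1 mouse for each. The third library is normal brainstem from a mouse called WT, also untreated, for which no line was injected. The protocol text attached to all 3 libraries describes saline perfusion, grinding, myelin removal with beads and red cell lysis. It gives the strain and the age only for injected mice.

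B cells develop in the bone marrow of adult mice, and precursors have also been described in the skull marrow and the meninges next to the brain. A pro-B cell cuts and joins the heavy chain gene with the Rag1-Rag2 recombinase, while Dntt adds bases at the joints. A large pre-B cell shows the heavy chain together with the surrogate light chain, made of Vpreb1 or Vpreb2 and Igll1, and divides. A small pre-B cell stops dividing, rearranges a kappa or lambda light chain gene and becomes an immature B cell, which later shows Ighd.

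The surrogate light chain genes bear directly on how the cells were chosen, so 3 of their promoter windows are shown, from RefSeq on GRCm38.p6. Each window runs from 250 bases before to 50 bases after the start. Vpreb1 (chr16:16869206-16869505, minus strand) and Vpreb2 (chr16:17980315-17980614, plus strand) are a near-identical pair, and capitals mark the longest run of bases that both windows share, 91 bases long.
Vpreb1: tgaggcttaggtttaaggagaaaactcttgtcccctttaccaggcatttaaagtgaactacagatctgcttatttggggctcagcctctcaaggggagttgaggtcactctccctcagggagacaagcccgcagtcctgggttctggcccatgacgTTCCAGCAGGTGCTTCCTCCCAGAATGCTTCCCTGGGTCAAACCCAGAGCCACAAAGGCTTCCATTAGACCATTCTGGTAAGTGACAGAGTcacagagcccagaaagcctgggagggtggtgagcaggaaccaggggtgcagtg
Vpreb2: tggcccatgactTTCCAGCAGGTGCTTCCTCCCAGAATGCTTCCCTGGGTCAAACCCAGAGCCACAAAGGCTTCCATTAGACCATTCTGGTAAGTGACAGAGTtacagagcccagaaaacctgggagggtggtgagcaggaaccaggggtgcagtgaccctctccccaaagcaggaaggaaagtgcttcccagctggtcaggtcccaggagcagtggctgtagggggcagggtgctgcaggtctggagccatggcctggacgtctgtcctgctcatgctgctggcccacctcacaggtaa
The shared run begins 94 bases before the Vpreb1 start and 238 bases before the Vpreb2 start as RefSeq places them. GENCODE places the start of Vpreb2 at base 17980428, upstream of the RefSeq start and inside the window. It places the start of Vpreb1 at base 16870843, so the whole Vpreb1 window lies inside that gene. These distances therefore depend on the annotation. The longest protein-coding transcripts of the pair, in GENCODE mouse release 21, are identical at 739 of 759 aligned bases (97.4%), and the alignment reaches the 3′ end of both. Reads of 3′ libraries may therefore be split or lost between Vpreb1 and Vpreb2, and their separate counts are uncertain.

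Igll1 (chr16:16863936-16864235, minus strand) lies beside Vpreb1, and in its window capitals mark CCCNNGGG, the core of the site read by the B lineage factor Ebf1, and CAGCTG, one form of the E box read by E2A proteins.
Igll1: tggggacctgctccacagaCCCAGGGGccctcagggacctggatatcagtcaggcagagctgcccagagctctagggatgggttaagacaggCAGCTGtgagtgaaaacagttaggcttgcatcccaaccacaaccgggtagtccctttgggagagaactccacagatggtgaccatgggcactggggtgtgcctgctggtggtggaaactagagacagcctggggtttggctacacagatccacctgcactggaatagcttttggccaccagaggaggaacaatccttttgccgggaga
The CCCNNGGG match begins 231 bases and the CAGCTG match 158 bases before the start. Both motifs were searched on both strands in 32851 promoter windows of this length; 13.7% hold the first and 16.3% the second. The windows of Vpreb1, Vpreb3, Dntt and Cd79a hold neither, and those of Vpreb2 and Rag1 hold 1 CAGCTG each. The CAGCTG of Vpreb2 lies inside the gene as GENCODE places it, and so do the whole windows of Vpreb1 and Vpreb3. A match is a description of letters only. The other rule genes lie at chr10:75943057-75949657 (Vpreb3), chr2:101638282-101649501 (Rag1), chr19:41029275-41059525 (Dntt), chr7:24897381-24902197 (Cd79a), chr11:106311341-106314762 (Cd79b) and chr12:113406604-113416324 (Ighd) on GRCm38.

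The 3 libraries differ in size and depth. After filtering they held 10925, 9645 and 3129 cells with median totals of 9012, 11443 and 2429 UMIs for tumour 1, tumour 2 and normal. Barcodes shared between pairs of libraries numbered 31, 11 and 8, and 1 of them was a precursor. Scrublet called 3.43%, 2.47% and 1.47% of cells doublets. The normal group has 1 library, so no gene comparison with it has a replicate check. Intervals below are exact 95% intervals, Clopper-Pearson for shares and Poisson for summed UMIs, and cover counting error only. They leave out the spread between cells and between mice, so overlap or its absence is a description and no test of a difference.

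Precursors made up 4.25% of the kept cells in normal (133 of 3129, interval 3.57 to 5.02%). In tumour 2 they made up 0.0622% (6 of 9645, 0.0228 to 0.135%). In tumour 1 there were 0 of 10925, which allows a share of up to 0.0275% by the limit of 3 cells and has a Clopper-Pearson upper bound of 0.0338%. The normal library stood above both tumour libraries, and the mean tumour share lay 4.22 percentage points below it. An exact permutation of 2 libraries against 1 cannot give a p below 1 in 3, so no p-value bears on this difference. Among cells past the Cd79 threshold the precursors were 54.3% in normal (133 of 245), 5.26% in tumour 2 (6 of 114) and 0 of 34 in tumour 1. Without the Ighd limit, 177 of 245 Cd79 cells in normal and 31 of 114 in tumour 2 had at least 2 precursor UMIs. In tumour 1 there were 0 of 34. The Ighd limit then left out 44 cells in normal and 25 in tumour 2. How depth bears on this step was not tested. Mature B cells, taken as Cd79 cells with Ighd and none of the 5 precursor genes, were 0.479% of kept cells in normal (15 cells), 0.415% in tumour 2 (40) and 0.101% in tumour 1 (11). Their intervals in normal (0.268 to 0.789%) and tumour 2 (0.296 to 0.564%) overlapped, while that of tumour 1 (0.0503 to 0.180%) lay below both. For the precursors both tumour intervals lay below that of normal.

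**Figure D1:**
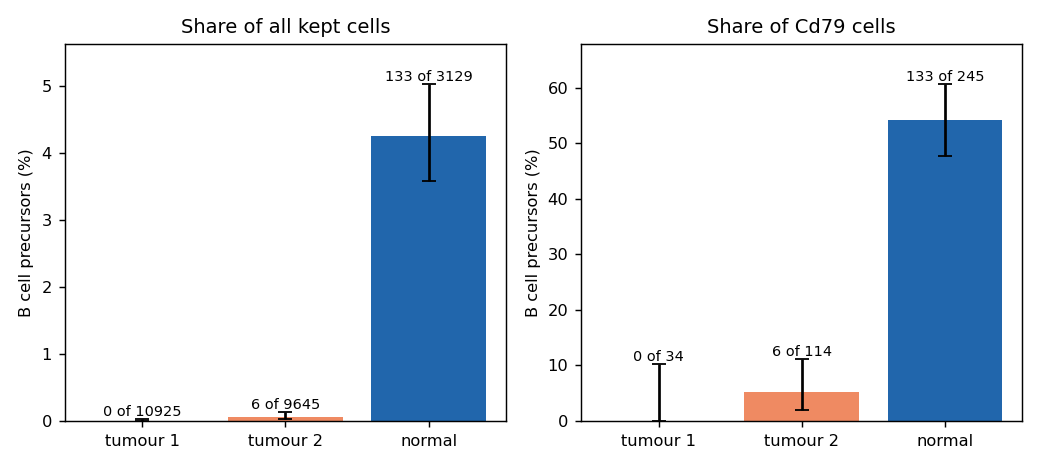
Share of B cell precursors (%) among all kept cells (left) and among Cd79 cells (right) in each library, with exact 95% binomial intervals as error bars and the counts printed above. The normal bar, at 4.25% and 54.3%, stands above both tumour libraries.

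Marker lists of bone marrow differed in direction across libraries by share of cells, while the summed level of each list below was highest in normal. Cells with at least 5 UMIs of the 6 neutrophil markers were 24.4% of normal cells, against 3.55% and 5.71% in tumour 1 and tumour 2. For the 4 granulocyte precursor markers the shares were 2.88%, 0.0549% and 0.0622% in the same order, and for the 7 bone and marrow stroma markers 4.28%, 0.403% and 1.24%. The summed level of the stroma list was 934.5 UMIs per 1000000 (CPM) in normal, 14.5 in tumour 1 and 30.5 in tumour 2. Other marrow lists went the opposite way by the same share of cells: in normal, tumour 1 and tumour 2 it was 1.79%, 40.03% and 23.7% for the 6 erythroid markers, 0.384%, 3.597% and 5.92% for the 4 megakaryocyte markers and 6.55%, 20.8% and 17.6% for the 6 blood stem and progenitor markers. Their summed levels were higher in normal, at 901, 681 and 636 CPM for the erythroid, 95.6, 63.9 and 66.3 for the megakaryocyte and 426, 234 and 215 for the stem and progenitor list. The shares were not thinned to 1 depth, and the tumour cells were deeper. Whether the cells counted belong to these lineages was not tested. Markers of the tissue itself were present in normal: cells with 5 UMIs of the 5 microglia markers were 25.7% and of the 3 neuron markers 6.46%. The part of marrow or blood cells in the precursor share was not tested. For the share of kept cells, fewer precursors and more of other cells cannot be told apart, since tumour libraries also hold graft and myeloid cells. The share among Cd79 cells leaves out cells below the Cd79 threshold. It was 54.3% in normal, 5.26% in tumour 2 and 0 of 34 in tumour 1, and its cause was not tested.

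The label was carried in full only by the normal library. Among its 245 Cd79 cells Vpreb3, a chaperone-like relative of the surrogate light chain, had a UMI in 75.5%, Rag1 in 37.1%, Vpreb1 in 27 cells, Igll1 in 9.80% and Dntt in 6.12%. In tumour 2 Vpreb3 had a UMI in 52.6% of 114 Cd79 cells, and Rag1, Dntt, Vpreb1 and Igll1 had 0 UMIs in all of them. In tumour 1 Vpreb3 had 8 UMIs in 34 Cd79 cells and the other 4 genes had 0. Median totals of the Cd79 cells were 1933, 3034 and 1547 UMIs for tumour 1, tumour 2 and normal, so the tumour cells were the deeper ones. Ighd ran the other way, with a UMI in 50.0% and 81.6% of Cd79 cells in the tumour libraries and 25.7% in normal. As background, 568 normal cells chosen by P2ry12 and Tmem119, a microglia gate with a median of 1878 UMIs, had Vpreb3 in 0.352% and 0 UMIs of Rag1, Dntt, Vpreb1 and Igll1.

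**Figure D2:**
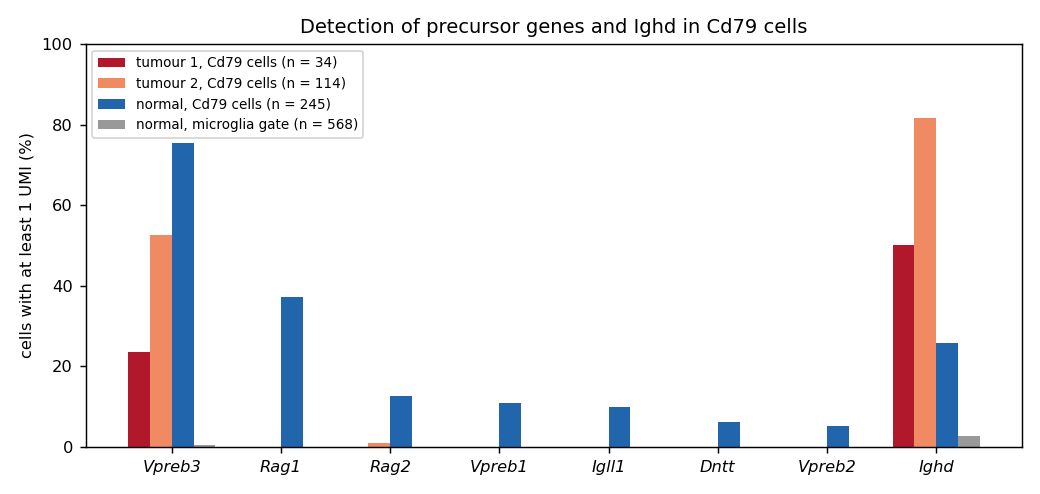
Share of Cd79 cells (%) with at least 1 UMI of each precursor gene and of Ighd, by library, beside the microglia gate of the normal library. Tumour Cd79 cells have Vpreb3 and Ighd but 0 UMIs of Rag1, Vpreb1, Igll1, Dntt and Vpreb2, and 1 UMI of Rag2 in tumour 2.

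The 6 precursors of tumour 2 all passed the rule on Vpreb3 alone, with 2 to 12 UMIs. They were not alike. The cell with the highest total, 18505 UMIs, held 715 UMIs of the plasma cell gene Jchain and 4678 of Igkc with 0 of Ighm, and was called a doublet. A second cell, with 6144 UMIs, held 12 of Vpreb3, 11 of the interleukin 7 receptor gene Il7r and 1 of Rag2. The remaining 4 cells had 13 to 42 UMIs of Cd74, the chaperone of class II molecules, and 6 to 35 of Ighm. One of these had 70 UMIs of the neutrophil gene S100a8. All 6 had 0 UMIs of Mki67 and Top2a. Without the Jchain cell, Cd74 was 6718 CPM over 5 cells, against 585 (503 to 677) over the normal precursors. The rest of the account is about the 133 normal cells.

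Those 133 cells had a median of 1575 UMIs, from 610 to 18208, and 2 of them were called doublets. Vpreb3 had a UMI in 130, Rag1 in 66, Vpreb1 in 22, Igll1 in 19 and Dntt in 13. A total of 58 cells (43.6%) qualified on Vpreb3 alone, 72 held at least 2 of the 5 genes and 21 at least 3. Just outside the threshold lay 9 Cd79 cells with 1 UMI of the 5 genes and 0 of Ighd, and just inside it 11 cells with 2 UMIs and 24 with 3. A further 44 Cd79 cells reached 2 UMIs but were left out for Ighd, 25 of them for 1 UMI of it. In the microglia gate 2.64% of cells had an Ighd UMI, so some of those 25 may hold it as free RNA, which was not tested.

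Ebf1, a transcription factor that commits cells to the B lineage, had a UMI in 99.2% of the precursors and stood at 6266 CPM (5989 to 6552). In the mature B cells of the same library it was 1854 (1400 to 2407), and in the microglia gate 36.3. Pax5, which holds B cell identity, differed less, at 485 (410 to 569) in precursors and 530 (303 to 860) in mature cells. Ighm, the heavy chain of IgM, was 3720 (3507 to 3942) and 4370 (3656 to 5182). It also had a UMI in 35.4% of the microglia gate, at 236 CPM, so shares of cells with Ighm say little.

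Genes were then compared between the 133 precursors and the 15 mature B cells as summed CPM with 10 added to each, for 3101 genes with at least 20 UMIs in all. This compares pooled cells of 1 library, with no test. Past 2-fold, 28.1% of these genes were higher and 8.32% lower in precursors, and the median log2 ratio of all of them was 0.26. In the mature cells 1 UMI equals 33.1 CPM, so a gene at 0 UMIs there could pass easily. List counts and medians are therefore given again as floored ratios, in which no CPM is added and a gene at 0 UMIs in a class is raised to 3 UMIs there; both changes bear on these values.

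Of 12 genes for early receptors and surface proteins 6 had enough UMIs, and 4 of these (Il7r, Cd24a, Cd93 and Il2ra) were past 2-fold higher in precursors. Il7r, the receptor subunit for the main growth factor of precursors, was 712 CPM (621 to 813) in precursors and 33.1 (0.838 to 184) in mature cells, where it had 1 UMI. Cd24a, a surface protein of immature B cells, was 1200 (1080 to 1329) and 132 (36.1 to 339). Cd93, a marker of B cells before maturity, was 250 (198 to 313) and 0 (up to 122). Cxcr4, a receptor that holds cells in marrow, was 354 against 199 CPM, and Cd2, an adhesion receptor, 61.8 against 132. Of the list 0 genes were past 2-fold lower, and the median log2 ratio was 2.25. As floored ratios the median was 1.49, and 4 were higher and 1 lower. That 1 was Cd2, which was not at 0 UMIs and stood at -0.99 with 10 CPM added. Il7r also had a UMI in 27.1% of the microglia gate, at 167 CPM.

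Among the transcription factors 6 of 16 were past 2-fold higher and 2 lower, and 5 and 2 as floored ratios. With 10 CPM added, the shares over all 3101 genes were 28.1% and 8.32%, not far from these counts. Myb, a factor of dividing progenitors, was 852 (752 to 961) in precursors and 99.3 (20.5 to 290) in mature cells. Lef1, a partner of beta-catenin found in early B cells, was 315 (256 to 385) and 0 (up to 122). Ikzf3, which rises as pre-B cells mature, was lower, at 146 (107 to 196) and 463 (253 to 778). Rag2, the partner of Rag1 and no part of the rule, was 111 (76.6 to 154) and 0 (up to 122), intervals that overlap. The precursor value rests on 34 UMIs in 23 cells.

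Of the mature B cell genes, 13 of 14 were past 2-fold lower in precursors and 0 higher, with a median log2 ratio of -2.62 (-2.71 as floored ratios, with 0 of the 14 genes at 0 UMIs, so that leaving out the added CPM made this difference). Cd74 was 585 (503 to 677) against 5727 (4906 to 6647). H2-Aa, a class II chain that presents antigen to T cells, was 42.3 (22.5 to 72.3) against 2748 (2189 to 3406). The exception was Cd37, a B cell tetraspanin, at 517 (440 to 604) against 894 (589 to 1301). Among the 4 light chain genes Iglc2 and Iglc3 were past 2-fold lower and Igkc and Iglc1 were not. The 11 G2 and M phase genes were all past 2-fold higher, and 7 as floored ratios; 9 of them had 0 UMIs in the mature cells. Ly6a, a stem and progenitor marker also found on lymphocytes, and, outside the lists, March1, Shisa5 and Ms4a4c were among the 12 lowest ratios and histone genes such as Hist1h2ap (2601 CPM against 0) among the 12 highest.

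**Figure D3:**
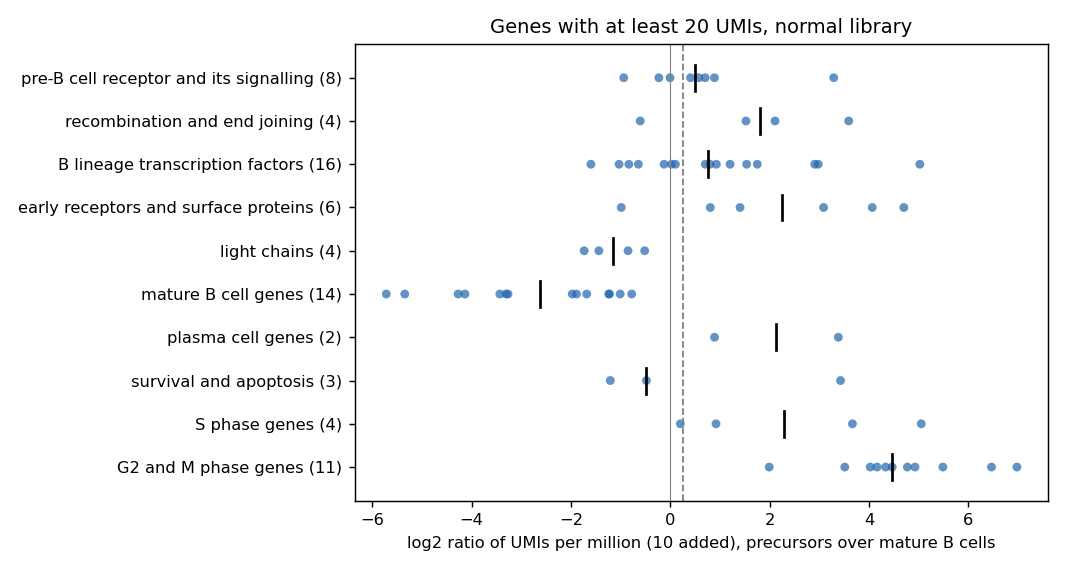
Log2 ratio of summed CPM (10 added), precursors over mature B cells of the normal library, 1 point per gene with at least 20 UMIs, by gene list with the number of genes in brackets. Black bars are medians, and the dashed line is the median of all 3101 genes (0.26). Rule genes are left out, mature B cell genes lie left of 0 and G2 and M phase genes right of it.

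The precursors were not uniform. After their values had been seen they were split by the rule genes into 23 cells with a UMI of Vpreb1, Igll1 or Dntt (the surrogate set), 52 further cells with Rag1 (the Rag1 set) and 58 with Vpreb3 only. Median totals were 5334, 1535 and 1312 UMIs, so depth moved with the split. CPM divides by total UMIs, but deeper cells weigh more in a summed level, and a deeper cell shows a rare gene more often. The main values are therefore given again for cells with at least 2000 UMIs, of which the sets held 18, 15 and 11. Of these, 9, 8 and 1 had at least 2 UMIs of Mki67 and Top2a, so this limit does not hold cell state equal.

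Lef1 and Erg were higher in the surrogate set than in the other sets. Of the 4 measured early receptors and surface proteins 0 were past 2-fold higher there than in the Vpreb3-only set (median log2 ratio -0.18). As floored ratios 1 was higher, Cd93, at 324 against 157 CPM. Lef1 was 745 CPM (601 to 914) there, 31.6 (6.52 to 92.4) in the Rag1 set and 22.4 (2.72 to 81.0) in the Vpreb3-only set. In the deeper cells these values were 704, 42.1 and 0. Erg, an ETS factor of early progenitors, had 20 UMIs in the surrogate set (162 CPM, 98.9 to 250) and 0 in the other sets (up to 38.9 and 41.4). Vpreb2 had 27 UMIs, all in the surrogate set, with the doubt about its counts given above. Rag2 was 162 (98.9 to 250), 147 (80.6 to 247) and 0 (up to 41.4). The surrogate and Rag1 sets overlapped for Rag2, and the Vpreb3-only set lay below both. Over the deeper cells Rag2 was 129, 84.2 and 0 (up to 122), and these intervals overlapped.

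Other genes were at their highest in the Rag1 set. Il2ra, the CD25 chain that marks small pre-B cells, had 27 of its 32 UMIs there, at 284 (188 to 414), against 8.10 (0.205 to 45.1) and 44.9 (12.2 to 115). Bach2, a repressor that works downstream of the pre-B cell receptor, was 243 (164 to 347), 1370 (1144 to 1626) and 617 (465 to 803) in surrogate, Rag1 and Vpreb3-only cells. In the deeper cells it was 249, 1874 and 398. Sox4, a factor needed early in B cell development, was 551 (428 to 698), 1275 (1058 to 1523) and 516 (378 to 688). For Sox4 the outer sets overlapped and the Rag1 set lay above both. At 2000 UMIs or more Sox4 was 549.5, 1074 and 531 and Il2ra 0, 232 and 33.2, and for each of them the Rag1 and Vpreb3-only sets overlapped. Myb was 980 and 990 in the surrogate and Rag1 sets and 527 (387 to 701) in the Vpreb3-only set. Il7r was 599 (471 to 752), 906 (725 to 1119) and 662 (504 to 854), with intervals that overlap. The deeper cells gave 635, 1158 (872 to 1507) and 497.5, and the Rag1 set lay above both.

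Light chains and genes of later B cells ran in the opposite direction. Igkc, the kappa constant region, was 194 (124 to 289), 2402 (2100 to 2735) and 7346 (6794 to 7930) in surrogate, Rag1 and Vpreb3-only cells. In the deeper cells it was 163, 2064 and 5970. Iglc1, a lambda constant region, was 0 (up to 29.9), 1464 (1231 to 1729) and 3297 (2931 to 3696). The deeper cells gave 0, 674 and 4112. Both light chains thus stood at a higher level in each set than in the one before. Iglc2 kept this order only without the depth limit: it was 0 (up to 29.9), 727 (566 to 920) and 1021 (822 to 1253) in all cells, with the last 2 overlapping, and 0, 126 and 0 in the deeper cells.

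Ms4a1, which encodes CD20, was 0 (up to 29.9), 179 (104 to 287) and 1951 (1672 to 2264). Its level in the Vpreb3-only set overlapped that of the mature cells, 2019 (1545 to 2594). Cd74 was 0 (up to 29.9), 94.8 (43.4 to 180) and 1918 (1641 to 2228), and in mature cells 5727. Among cells of at least 2000 UMIs Ms4a1 was 0, 147 and 1890, and Cd74 was 0, 84.2 and 1094 (753 to 1537), the last below its interval in all Vpreb3-only cells. Ighm followed the same order, at 1774 (1547 to 2025), 4372 (3962 to 4814) and 5720 (5234 to 6238). Class II chains stayed low even in the Vpreb3-only set, where H2-Aa was 112 (53.8 to 206).

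**Figure D4:**
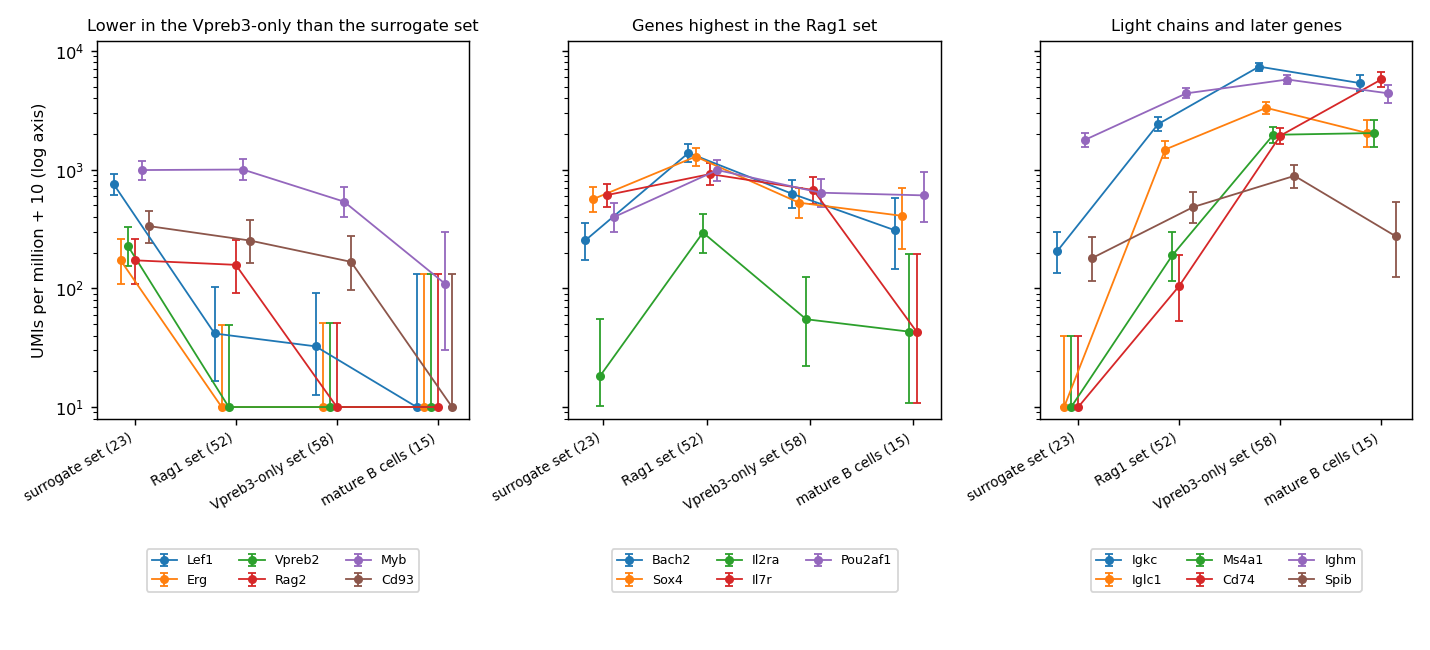
Summed CPM plus 10 (log axis) in the 3 precursor sets and in mature B cells of the normal library, with the number of cells in brackets and exact 95% Poisson intervals as error bars. Lef1, Erg and Vpreb2 are highest in the surrogate set, Bach2, Sox4 and Il2ra in the Rag1 set, and Igkc, Iglc1 and Ms4a1 are higher in the Vpreb3-only set than in the other 2 sets.

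Over 1976 genes with enough UMIs, 17.1% were past 2-fold higher and 10.8% lower in the surrogate set than in the Vpreb3-only set, with a median log2 ratio of 0.10. In cells with at least 2000 UMIs, 117 genes in place of 214 were lower. All 4 light chain genes and all 7 measured mature B cell genes were lower, Ms4a1, Cd74, H2-Ab1, Cd37, Klf2, S1pr1 and Tnfrsf13c among the latter. Medians were -5.93 and -3.29, and -5.32 and -3.57 as floored ratios. All 11 G2 and M phase genes were higher, with a median of 3.52 (3.44 as floored ratios). Of 16 transcription factors, Lef1 and Erg were higher and Pax5, Ikzf3, Irf8, Bach2, Spib and Bcl11a lower. Among the 12 lowest were also Ly6d, a surface marker of B-biased cells, at 72.9 against 2961 CPM, and Bank1, a B cell scaffold protein, at 8.10 against 269.

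Light chain use was then read per cell, counting a chain as present at 5 UMIs or more. Of 133 precursors 39 held kappa only, 20 lambda only, 17 both and 57 neither, and 20 had no light chain UMI at all. In the surrogate set 21 of 23 held neither. In the Rag1 set 15 held kappa only, 12 lambda only, 1 both and 24 neither. In the Vpreb3-only set the counts were 22, 8, 16 and 12. The microglia gate had 0 of 568 cells at 5 UMIs, and its highest count of either chain was 1.

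Cells with both chains were thus mostly in the Vpreb3-only set. They were also common among mature B cells, at 9 of 15 in normal and 18 of 40 in tumour 2. The files count constant regions, which can be transcribed without a productive joint. Whether that bears on the cells with both chains was not tested. The Igkc level of the microglia gate was 0.773 CPM. Variable segments were seen more rarely: a kappa segment in 48 precursors, a heavy segment in 23 and a lambda segment in 19, and 0 in the microglia gate. In the Vpreb3-only set these were 24, 11 and 12 of 58 cells, and in the mature cells of normal 7 of 15 for each. The 77 kappa segment UMIs of the precursors fell on 29 segments, the highest, Igkv1-117, with 9 UMIs in 5 cells. Their 29 heavy segment UMIs fell on 22 segments.

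The same association of light chains with the rule genes can be read by light chain UMIs. It is a description and no second line of evidence, since these genes chose the cells and the sets. In the 20 precursors with 0 light chain UMIs, Vpreb1 and Igll1 each had a UMI in 14 cells, Dntt in 11 and Rag1 in 14. In the 55 with 1 to 9 light chain UMIs these were 8, 5, 2 and 32 cells. In the 58 with 10 or more they were 0, 0, 0 and 20. Vpreb3 had overlapping levels, at 2990 (2589 to 3435), 2856 (2587 to 3145) and 3153 (2809 to 3528) CPM. Ebf1 was 7542 (6897 to 8232), 6141 (5743 to 6559) and 5573 (5112 to 6064), so the first and last bins did not overlap. Rag2 had a UMI in 11 of 20, 10 of 55 and 2 of 58 cells, at 255 (149 to 409), 104 (58.2 to 171) and 20.7 (2.50 to 74.7) CPM. Median totals of the 3 bins were 2538, 1681 and 1404 UMIs.

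Dividing cells made up 15.8% of the precursors (21 of 133, 10.0 to 23.1%), taken as cells with at least 2 UMIs of Mki67 and Top2a, genes of the late cell cycle. The call was clear in most cells: 110 had 0 such UMIs, 2 had 1, 3 had 2 to 5 and 18 had 6 or more. By set they were 9 of 23, 11 of 52 and 1 of 58. Among cells with at least 2000 UMIs they were 9 of 18, 8 of 15 and 1 of 11. Mature B cells had 0 of 15, with an upper bound of 21.8%.

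Thinning every cell to 1000 UMIs gave a share of 19.1% for cells with at least 1 such UMI (22 of 115, 12.4 to 27.5%), with 18 shallower cells left out, against 17.3% unthinned. The surrogate and Vpreb3-only sets were then at 40.9% and 4.08%, the Rag1 set at 11 of 44 cells, and the microglia gate of normal 0.388%. The surrogate and Vpreb3-only intervals did not overlap (20.7 to 63.7% and 0.498 to 14.0%), while the Rag1 set overlapped both. The tumour microglia gates were at 9.05% and 7.37%, well above the gate in normal.

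**Figure D5:**
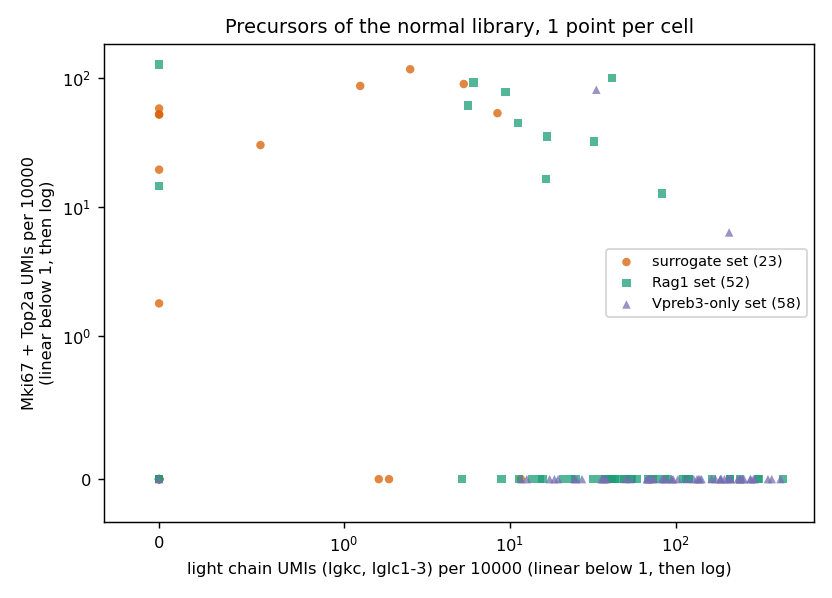
Mki67 and Top2a UMIs per 10000 against light chain UMIs per 10000 in each of the 133 precursors of the normal library, coloured by set; axes are linear below 1 and logarithmic above. Most cells with many light chain UMIs lie at 0 on the cycling axis, and the dividing cells are mainly of the surrogate and Rag1 sets.

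The 21 dividing and the 110 cells with 0 Mki67 and Top2a UMIs were compared over 2786 genes, of which 13.2% were past 2-fold higher and 13.1% lower in dividing cells, with a median log2 ratio of -0.0036. In cells with at least 2000 UMIs, 189 genes in place of 365 were lower. Since Mki67 and Top2a chose the cells, the higher counts of cycle genes are a description. The dividing cells had a median of 4230 UMIs and the others 1422. Igkc was 675 (532 to 843) in dividing cells and 4306 (4013 to 4615) in the others. Iglc1, Iglc2, Ms4a1 and Cd74 had 0 UMIs in the dividing cells (up to 32.3 CPM) and 859 to 2303 CPM in the others. All 4 light chain genes and 6 of 8 mature B cell genes were past 2-fold lower, with medians of -5.66 and -2.22 (-5.27 and -2.45 as floored ratios). Il7r (850 and 650) and Myb (867 and 822) had overlapping intervals. Of 16 transcription factors 1 was higher, Erg, and 3 lower, Ikzf3, Spib and Bcl11a.

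Markers of other cells were low in the precursors. The 5 T cell markers were at 0 UMIs, and the plasma cell gene Jchain was at 0. Macrophage and monocyte markers summed to 576 CPM, neutrophil markers to 585 and microglia markers to 273, with 5 UMIs or more in 3, 5 and 2 of 133 cells. In all, 8 precursors held 5 or more UMIs of at least 1 of these 3 lists, 3 in the surrogate, 2 in the Rag1 and 3 in the Vpreb3-only set, and 1 of them was called a doublet. Without them and the called doublets the sets held 20, 50 and 54 cells with 9, 10 and 1 dividing. Lef1 in the surrogate set was then 757 and Igkc in the Vpreb3-only set 7245 CPM, both inside the intervals above.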

How the data were processed

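Cells were dissociated from brainstem, captured with the 10x 3′ kit and sequenced. The authors deposited UMI counts, whole numbers for each gene in each barcode, with no normalization. Per the file headers the counting was done by Cell Ranger 6.1.2, and the submitters' processing notes name mm10 as the build. Barcodes with at least 500 UMIs, 300 genes and at most 15% mitochondrial UMIs were kept and doublets were called with Scrublet in scanpy 1.11.5 (expected rate 8%) but not removed. The precursors, the gene lists and the tests were chosen with earlier results of these data known, and the 3 sets after their values were seen.

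The planned edgeR tests needed at least 10 cells of a class in several libraries; tumour 1 held 0 and tumour 2 held 6 precursors, so summed counts within the normal library are given as values without a test. Named genes were the list genes and the 12 highest and 12 lowest log2 ratios of CPM (10 added) among genes with at least 20 UMIs. Gene positions come from GENCODE mouse release 21, which holds 32158 of the 32285 identifiers. The ratio step and the thinning were tested on simulated data. The simulated ratios had equal totals in both classes, used genes with many UMIs and were centred on their median. They do not cover the unequal totals, rarer genes and uncentred ratios reported here. Nothing beyond the titles states how the samples relate.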

Additional observations from a re-analysis of the deposited data

How the results depend on the processing

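The direction of the precursor share, lower in the tumour libraries, was the same under each setting tried. The difference ran from -3.71 to -4.22 percentage points over the cell, mitochondrial, doublet, precursor UMI, thinning and Cd79 settings, was -51.7 points of Cd79 cells, and lay between -4.25 and -4.19 with 1 tumour library left out. With every cell thinned to 1000 UMIs, tumour 2 held 0 precursors in place of 6 and normal 102 of 2732, and with at least 3 precursor UMIs tumour 2 held 3.

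Counts of genes past 2-fold depended on the filter and on depth. With every gene of at least 1 UMI, precursors against mature B cells gave 3650 higher and 1604 lower (871 and 258 with at least 20 UMIs), and dividing against other precursors 1274 and 2669 (367 and 365). In cells with at least 2000 UMIs, a setting chosen after seeing the data, 189 genes were lower in dividing cells and 117 lower in the surrogate set than in the Vpreb3-only set (365 and 214 in all cells), with fewer cells compared. TMM scaling moved the split of precursors against mature B cells from 871 higher and 258 lower to 778 and 331. Of 90 further values (set sizes and gene levels) 79 stayed in range (gene levels inside the 95% counting interval of the reported value, set sizes within 1.5-fold) and 11 did not, of which 8 came with thinning; the surrogate set then held 11 cells, and 14 with Cd79 at 10 per 10000. Gene levels that moved past 1.5-fold were those of the surrogate set for Lef1 (1182 CPM), Rag2 (273) and Il7r (364) with thinning and for Rag2 (269) with the higher Cd79 threshold.

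No paired analysis was possible because the labels name no pairs of tumour and normal libraries. DESeq2, the expression filter, the fit without a library block and fits leaving out a library were not run, since no fit was made. Depth limits the surrogate genes: 0 UMIs in a shallow cell does not place it in a later set.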

Other observations

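Precursor gene UMIs also occurred outside the selected cells. In normal, 219 of the 227 Rag1 UMIs and 1258 of the 1312 Vpreb3 UMIs lay in Cd79 cells. Dntt, the base-adding enzyme, had 113 of its 142 UMIs there. In the tumour libraries Vpreb1 had 21 and 43 UMIs over all kept cells, 0 of them in Cd79 cells, and Dntt had 2 and 21, also with 0 in Cd79 cells. The cells that hold these UMIs were not described further.

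Mature B cells gave a second view of light chain use across libraries. In tumour 2, 19 of 40 held kappa only, 1 lambda only and 18 both at 5 UMIs or more. In normal, 3 of 15 held kappa only, 3 lambda only and 9 both. In tumour 1 the counts were 5, 1 and 4 of 11. Median totals were 3014, 1917 and 1937 UMIs.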
